A study of Mus musculus with 16 samples.

Results

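The 35 genes described here are established markers of astrocytes. They were found by matching each gene symbol to the gene names of a table of expression in the mouse hippocampus, which holds 22572 names. All 35 were present, and all 35 passed a filter on low values, at least 1 FPKM when averaged across the 16 libraries, as did 12648 genes in all. FPKM is fragments per kilobase of transcript, scaled to the size of the library, so it sets genes of different length on 1 scale. Ppap2b is listed under that older symbol of Plpp3, and Aqp4 is the only member with 2 loci in the table, whose values were summed.

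The hippocampi came from male C57BL/6 mice in 4 groups of 4 libraries. The groups were Bgn knockouts (Bgn0/- in the labels, BgnKO here) that drank fructose, BgnKO mice on regular water, wild-type (WT) mice that drank fructose, and WT mice on regular water. Fructose was dissolved at 15% (w/v), and the mice drank it for 6 weeks from the age of 3 months. Bgn, which lies on the X chromosome, is the gene of biglycan, a proteoglycan with leucine-rich repeats that cells secrete into their matrix. The labels give no cell type to which the deletion is limited, and which part of the gene was deleted is not stated in the sources used here. They also do not state whether each replicate is another animal, so the p-values measure the spread among these libraries, part of which may be technical.

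Astrocytes are glial cells that ensheath synapses and blood vessels. They clear glutamate from the synaptic cleft through the transporters encoded by Slc1a2 and Slc1a3 and convert it to glutamine with glutamine synthetase, the product of Glul. They buffer potassium and water through channels at their endfeet, among them aquaporin 4, and they are joined into networks by gap junctions of connexin 43 (Gja1) and connexin 30 (Gjb6). Intermediate filaments built from the Gfap and Vim proteins form their cytoskeleton, and Gfap is the gene most often used to mark astrocytes that react to injury. The hippocampus holds astrocytes in every layer, and also radial glia-like stem cells in the dentate gyrus that share Gfap, Sox2, Sox9, Vim and Fabp7 with them.

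The library of replicate 1 stood apart from the others in every group. In the replicate 1 libraries a median of 2.95 to 4.12% of a gene's FPKM lay on the strand opposite to its annotation, against 15.8 to 19.6% in replicates 2 to 4, over 403 genes with loci on both strands. Bgn itself averaged 6.505 ± 1.14 FPKM in BgnKO and 16.01 ± 6.42 FPKM in WT libraries (SD, n = 8 each), and the exact two-sided permutation p was 0.00109. In replicates 2 to 4 alone it averaged 7.09 ± 0.341 FPKM in BgnKO and 18.8 ± 4.31 FPKM in WT libraries (SD, n = 6 each; exact two-sided permutation p = 0.00216). The library labelled WT fructose replicate 1 had 5.42 FPKM of Bgn, inside the BgnKO range of 4.46 to 7.60 FPKM, so its Bgn level goes against its label. Replicate 1 had the lowest Bgn level in every group, however, at 5.02 FPKM in BgnKO fructose, 4.46 FPKM in BgnKO water and 9.94 FPKM in WT water. The cause of the low level was not tested. Several counts that use the WT fructose group are therefore also given without the library labelled WT fructose replicate 1. Others, among them the counts of markers without overlap and the counts by role, are given only with it. The named genes summed to 342721 to 376209 FPKM per library. The number of reads behind each value is unknown, so values carry no counting interval.

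The markers are abundant genes of this tissue. The highest means over the 16 libraries were 1639 FPKM for Cst3, which encodes the protease inhibitor cystatin C, 701 FPKM for Glul, 697 FPKM for Clu (clusterin, an extracellular chaperone) and 527 FPKM for Aldoc, the brain form of the glycolytic enzyme aldolase. The lowest were 15.3 FPKM for the transcription factor gene Sox9 and 10.6 FPKM for Itih3, a heavy chain of a serum protease inhibitor. Even Itih3 lay above 50.8% of the tested genes. Summed, the 35 markers took 1.80 to 2.46% of the FPKM of all named genes in BgnKO fructose, 1.62 to 2.18% in BgnKO water, 1.66 to 1.75% in WT fructose and 1.63 to 1.76% in WT water libraries. The shares in both WT groups thus spanned a narrower range than in either BgnKO group.

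The highest level of an astrocyte marker was nearly always found in a BgnKO library. For 34 of the 35 genes the highest of the 16 values belonged to a BgnKO library, with F3 the exception, and for 33 it belonged to BgnKO fructose replicate 4 (21 genes), BgnKO fructose replicate 3 (8 genes) or BgnKO water replicate 4 (4 genes). BgnKO water replicate 4 was the highest library of its group for 35 of 35 markers. The mean of the BgnKO fructose group lay above the means of the other 3 groups for 33 markers, the exceptions being F3 and Fabp7. Averaged over the 35 markers, the log2(FPKM + 1) deviation from the mean of all libraries was 0.05, 0.03, 0.38 and 0.43 in BgnKO fructose replicates 1 to 4 and -0.13, -0.14, -0.05 and 0.31 in BgnKO water. It was -0.17, -0.13, -0.05 and -0.07 in WT fructose and -0.19, -0.06, -0.04 and -0.17 in WT water. Within each BgnKO group the libraries therefore differed by more than the spread across all 8 WT libraries, and 3 BgnKO libraries stood out from the other 13.

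**Figure D1:**
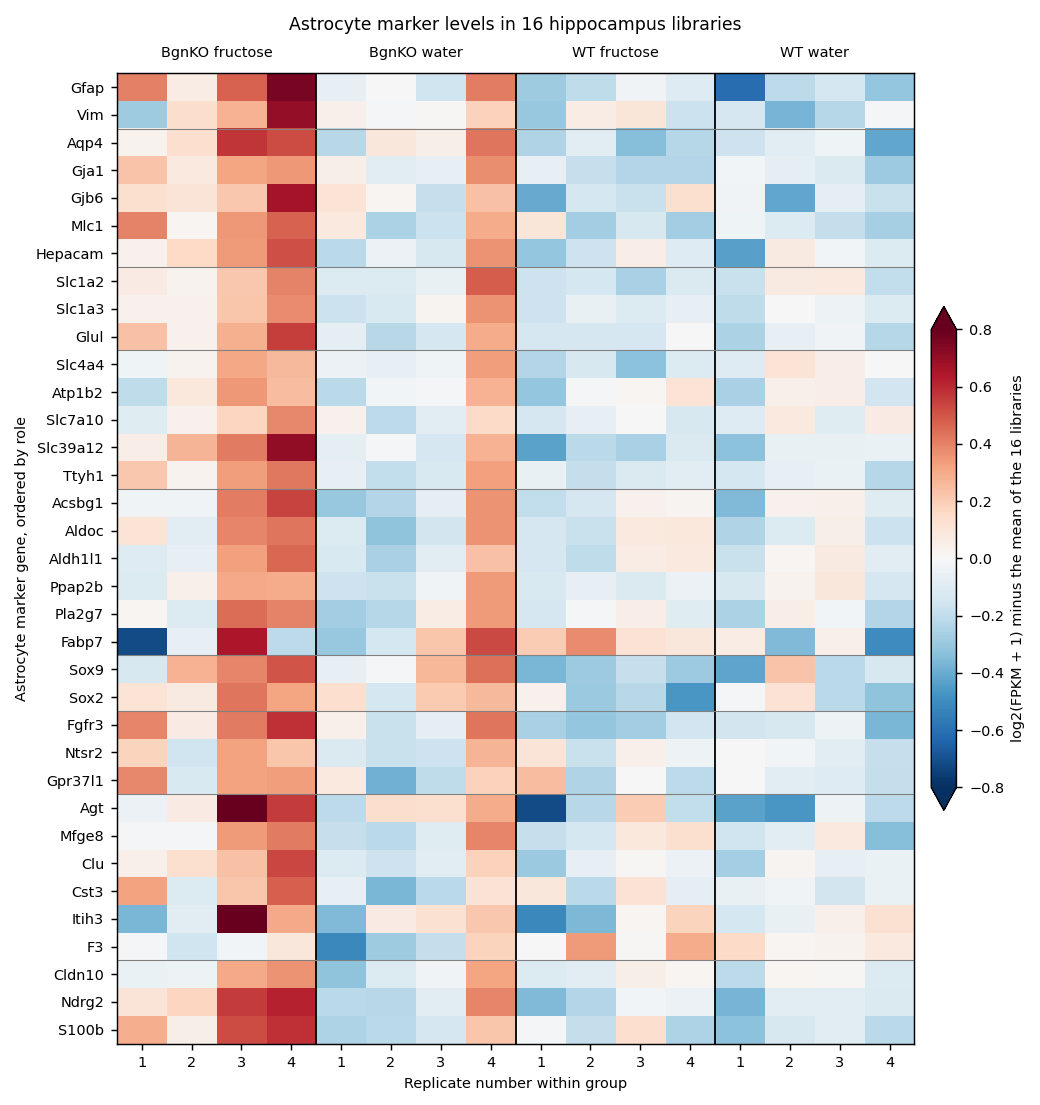
Level of each of the 35 astrocyte markers (rows, grouped by role) in each of the 16 libraries (columns, by group and replicate), as the log2(FPKM + 1) difference from the gene's mean over all libraries. The darkest columns are BgnKO fructose replicates 3 and 4 and BgnKO water replicate 4, whose deviations average 0.38, 0.43 and 0.31.

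The first comparison asks how the knockout differed from the wild type when both drank fructose. Of the 35 markers, 33 had a higher mean in BgnKO than in WT mice, and 6 rose past the threshold: Fgfr3, Slc39a12, Gja1, Gfap, Aqp4 and Sox2. Their folds lay between 0.42 and 0.62 on the log2 scale, and none of the 35 fell. In bulk tissue, more astrocytes and more RNA per astrocyte cannot be told apart. The fits were made with limma on log2(FPKM + 1) over all tested genes, with Benjamini-Hochberg adjustment and a threshold of 0.05 on the adjusted p, and a fold on this scale understates the change of genes of low level.

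Across all tested genes 1.63% were called higher by the same rule, against 6 of the 35 markers, and 2.13% were called lower, against 0 of the 35. At an unadjusted p under 0.05, 19 markers were higher, where the share over all genes was 10.3%. The 4 BgnKO libraries lay entirely above the 4 WT libraries for 14 markers, against 4.61% of all genes. Aqp4 is among them with its loci summed. The median log2 fold of the 35 was 0.34, and that of all genes was -0.01, with 47.5% of them above 0. Leaving out the library labelled WT fructose replicate 1 left 5 markers called (Fgfr3, Gja1, Mlc1, Slc39a12 and Sox2) and a median of 0.33. For that fit the share of all genes called is not given here.

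Fgfr3, at chr5:33721674-33737068 on the plus strand (mm10, GENCODE vM21), encodes fibroblast growth factor receptor 3, which mature astrocytes and their precursors carry. It was at 35.5, 28.2, 36.2 and 40.8 FPKM in BgnKO fructose replicates 1 to 4, against 22.3, 21.5, 22.0 and 24.03 FPKM in WT fructose. Every BgnKO value lay above every WT value, and the smallest gap was between BgnKO replicate 2 and WT replicate 4. The log2 fold was 0.62 with a standard error of 0.12 (95% interval 0.35 to 0.88), a 1.53-fold rise, with a limma adjusted p of 0.0159.

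Slc39a12, at chr2:14388316-14494977 on the plus strand, encodes a zinc transporter of the ZIP family that is enriched in the brain. It was at 24.6, 28.7, 31.8 and 39.3 FPKM in BgnKO fructose, against 17.3, 20.2, 19.6 and 21.8 FPKM in WT fructose. The groups did not overlap. Its log2 fold was 0.62 with a standard error of 0.13 and a limma adjusted p of 0.0164, the same size as for Fgfr3.

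Gja1, at chr10:56377330-56402513 on the plus strand, encodes connexin 43, the main gap junction protein of astrocytes. It was at 125, 113, 133 and 136 FPKM in BgnKO fructose, against 102, 94.0, 90.6 and 90.8 FPKM in WT fructose. The WT libraries lay close together, all below the lowest BgnKO library. The fitted log2 fold was 0.42 with a standard error of 0.10 and a limma adjusted p of 0.0297.

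Gfap, at chr11:102887336-102900912 on the minus strand, encodes glial fibrillary acidic protein. It was at 155, 122, 163 and 199 FPKM in BgnKO fructose, against 95.9, 101, 115 and 109 FPKM in WT fructose. BgnKO replicate 2 lay only a little above the highest WT library, while the other 3 BgnKO libraries were well above it. On the log2 scale the fold was 0.58 with a standard error of 0.15 and a limma adjusted p of 0.0409.

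Aqp4, on chromosome 18, encodes aquaporin 4, the water channel of astrocyte endfeet. Summed over its 2 loci it was at 38.1, 41.1, 56.1 and 54.1 FPKM in BgnKO fructose, against 31.6, 35.2, 29.4 and 31.7 FPKM in WT fructose, and the groups did not overlap. The log2 fold was 0.54 with a standard error of 0.14 and a limma adjusted p of 0.0480. One of these loci lies on the strand opposite to the gene and was at 0 to 0.048 FPKM in the replicate 1 libraries and at 5.16 to 15.6 FPKM in replicates 2 to 4. The locus on the gene's own strand was at 38.1, 31.49, 40.4 and 43.7 FPKM in BgnKO fructose, against 31.51, 30.0, 21.2 and 25.0 FPKM in WT fructose. At that locus the groups overlapped, since BgnKO replicate 2 lay just below the library labelled WT fructose replicate 1. With that locus alone the log2 fold was 0.50 and the limma adjusted p 0.144, within a range of 0.0125 to 0.201 for Aqp4 over the 12 other ways of processing that were tried.

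Sox2, at chr3:34650405-34652461 on the plus strand, encodes a transcription factor of neural stem cells that astrocytes keep. It was at 24.8, 24.1, 31.1 and 28.7 FPKM in BgnKO fructose, against 23.4, 18.4, 19.5 and 16.3 FPKM in WT fructose. The groups did not overlap, but the gap between BgnKO replicate 2 and the library labelled WT fructose replicate 1 was under 1 FPKM. Its log2 fold was 0.47 with a standard error of 0.12 and a limma adjusted p of 0.0493. That p was 0.0194 to 0.0805 over the 12 other ways of processing, and the call was lost in 5 of them, among them a filter of 5 FPKM (0.0502), no filter (0.0651) and 1 locus for each name (0.0501).

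**Figure D2:**
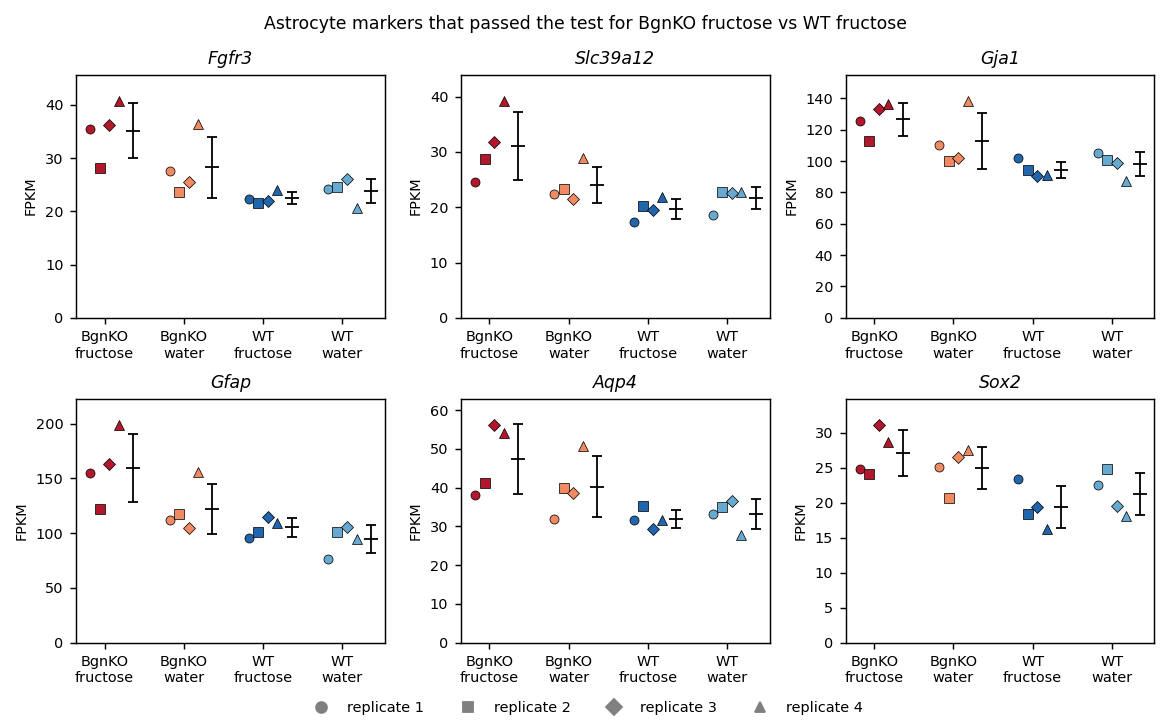
FPKM in each of the 16 libraries (points, shaped by replicate) with the group mean ± SD beside them for the 6 astrocyte markers that passed the test between BgnKO fructose and WT fructose. For Gfap the BgnKO fructose libraries lie between 122 and 199 FPKM, above all 8 WT libraries.

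The promoters of 5 of these 6 genes are shown because the genes moved together in this comparison. Each is the 250 bases upstream of the gene's first-listed start in RefSeq (GRCm38.p6), written 5′ to 3′ on the strand of the gene. These starts differ from those of the GENCODE positions given above. The Fgfr3 and Slc39a12 windows run past the GENCODE start, and the Gfap window lies inside the GENCODE span of the gene. The windows are chr5:33721474-33721723 (plus strand) for Fgfr3, chr2:14388148-14388397 (plus) for Slc39a12, chr10:56377050-56377299 (plus) for Gja1, chr11:102897201-102897450 (minus) for Gfap and chr3:34649745-34649994 (plus) for Sox2. Capitals mark the matches, on either strand, to 5 motifs: the AP-1 site TGANTCA, the SOX core ACAAAG or ACAATG, the core of the nuclear factor I site TTGGC, the STAT site TTCNNNGAA and the TATA box TATAAA. No motif searched lies within another.
Fgfr3: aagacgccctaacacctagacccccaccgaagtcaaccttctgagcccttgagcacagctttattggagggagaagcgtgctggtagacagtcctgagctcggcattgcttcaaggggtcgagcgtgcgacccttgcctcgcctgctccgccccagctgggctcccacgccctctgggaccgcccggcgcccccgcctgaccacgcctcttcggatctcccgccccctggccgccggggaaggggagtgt
Slc39a12: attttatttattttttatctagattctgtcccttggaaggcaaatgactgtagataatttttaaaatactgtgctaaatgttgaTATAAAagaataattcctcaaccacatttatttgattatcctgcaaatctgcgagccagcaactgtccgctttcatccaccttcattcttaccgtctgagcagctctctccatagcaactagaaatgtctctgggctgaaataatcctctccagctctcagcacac
Gja1: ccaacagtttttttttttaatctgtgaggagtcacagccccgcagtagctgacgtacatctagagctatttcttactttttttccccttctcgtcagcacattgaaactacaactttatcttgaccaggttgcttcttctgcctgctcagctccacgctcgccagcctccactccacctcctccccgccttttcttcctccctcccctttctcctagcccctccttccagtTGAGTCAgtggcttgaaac
Gfap: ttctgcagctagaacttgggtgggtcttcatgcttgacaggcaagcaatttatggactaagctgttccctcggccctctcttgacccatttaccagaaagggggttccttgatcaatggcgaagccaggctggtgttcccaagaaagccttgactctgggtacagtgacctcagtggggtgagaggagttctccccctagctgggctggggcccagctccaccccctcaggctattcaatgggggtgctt
Sox2: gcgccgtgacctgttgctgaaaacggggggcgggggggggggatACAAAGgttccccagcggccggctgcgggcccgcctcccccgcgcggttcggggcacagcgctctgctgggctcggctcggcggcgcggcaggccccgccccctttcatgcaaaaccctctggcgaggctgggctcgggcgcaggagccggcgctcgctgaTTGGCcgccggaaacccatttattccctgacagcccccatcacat

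Positions are counted back from the base before the start. The Gja1 window held 1 AP-1 match at -19 to -13, the Slc39a12 window 1 TATA match at -166 to -161, and the Sox2 window 1 SOX match at -206 to -201 and 1 nuclear factor I match at -45 to -41. The Fgfr3 and Gfap windows held none of these letters. RefSeq windows were matched for 31 of the 35 markers. Aqp4, Sox9, Atp1b2 and Clu were not matched. The AP-1 motif was found in 6.45% of the 31 windows and in 6.87% of all 27025 windows, the SOX motif in 9.68% and 25.5%, and the nuclear factor I core in 48.4% and 41.9%. The STAT motif was found in 16.1% of the 31 windows and 7.18% of all, and the TATA box in 16.1% and 13.0%. Base composition differed widely among the 5 genes, with 37.6% G and C in the Slc39a12 window and 72.0% in that of Sox2. A match describes the letters in a window and shows no binding.

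The other markers are given by role. Of the 5 genes for water transport, gap junctions and the complex of the Mlc1 protein, 2 rose (Gja1 and Aqp4), all 5 were higher at an unadjusted p under 0.05, and the median log2 fold was 0.42. Gjb6, the connexin 30 gene, showed a log2 fold of 0.42 (limma adjusted p = 0.0942). Mlc1, mutated in a human disease with brain white matter swelling, had 0.45 (0.0582), and Hepacam, which encodes the adhesion protein that holds Mlc1 at cell junctions, had 0.39 (0.122). None of these 3 passed the test. With a term for replicate 1 in the fit, the limma adjusted p was 0.0454 for Gjb6, 0.0161 for Mlc1 and 0.0170 for Hepacam. In that fit 7.92% of all genes were called higher. Of the 2 cytoskeletal genes, Gfap rose, and Vim, the vimentin gene, did not pass. Vim was at 27.9, 37.8, 41.7 and 56.1 FPKM in BgnKO fructose, against 27.5, 35.6, 36.5 and 30.3 FPKM in WT fructose, with overlap of the groups and a limma adjusted p of 0.3001.

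The 3 genes of glutamate uptake and conversion did not pass the test, although the groups did not overlap for any of them. Slc1a2, which encodes the transporter GLT-1, was at 385, 376, 427 and 484 FPKM in BgnKO fructose, against 328, 334, 308 and 340 FPKM in WT fructose, with a log2 fold of 0.35 and a limma adjusted p of 0.128. Slc1a3, which encodes GLAST, was at 248, 248, 283 and 315 FPKM in BgnKO fructose, against 216, 233, 224 and 232 FPKM in WT fructose, with a log2 fold of 0.27 and an adjusted p of 0.169 in limma. Glul was at 814, 710.0, 842 and 1014 FPKM in BgnKO fructose, against 630, 629, 631 and 693 FPKM in WT fructose, with a log2 fold of 0.38 and a limma adjusted p of 0.0843. For all 3, the highest value of the group was in BgnKO fructose replicate 4. With a term for each replicate number in the fit, the limma adjusted p was 0.0491 for Slc1a2, 0.0394 for Slc1a3 and 0.0212 for Glul. In that fit 9.16% of all genes were called higher, and the labels state no pairing of libraries by that number.

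Of the 5 genes of other transporters, channels and pumps, Slc39a12 rose and the median log2 fold was 0.34. Ttyh1, a chloride channel homologue gene, had 0.37 (limma adjusted p = 0.0656), and Slc4a4, the sodium bicarbonate cotransporter gene, had 0.34 (0.0696). Slc7a10, a small neutral amino acid transporter gene, had 0.20 (0.242), and Atp1b2, which encodes a subunit of the sodium pump, had 0.17 (0.498). None of these 4 passed. Both transcription factor genes were higher at an unadjusted p under 0.05 and did not overlap between the groups. Sox9 was at 13.6, 18.3, 19.9 and 21.6 FPKM in BgnKO fructose, against 11.4, 11.997, 13.04 and 12.04 FPKM in WT fructose, and its log2 fold of 0.54 missed the threshold (limma adjusted p = 0.0547). Of the 3 receptor genes, Fgfr3 passed, while Gpr37l1, an orphan receptor gene, showed a log2 fold of 0.28 (limma adjusted p = 0.266) and Ntsr2, a neurotensin receptor gene, had 0.16 (0.434).

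None of the 6 genes of metabolic and lipid proteins, all of them enzymes except Fabp7, passed at an adjusted or an unadjusted p under 0.05. Their median log2 fold was 0.23, the smallest of the 9 roles. Aldoc was at 562, 488, 682 and 701 FPKM in BgnKO fructose, against 474, 460.1, 549 and 552 FPKM in WT fructose. The groups overlapped, and limma gave an adjusted p of 0.334. Aldh1l1, the folate enzyme gene widely used to mark astrocytes, was at 20.1, 20.6, 27.4 and 30.1 FPKM in BgnKO fructose, against 19.6, 18.7, 22.6 and 22.96 FPKM in WT fructose, with a log2 fold of 0.20 (limma adjusted p = 0.386). Replicates 3 and 4 of BgnKO lay above all WT libraries and replicates 1 and 2 among them. Acsbg1, an acyl-CoA synthetase gene, had a log2 fold of 0.29, Pla2g7, which encodes platelet-activating factor acetylhydrolase, had 0.23, and Ppap2b, a lipid phosphatase gene, had 0.22. Fabp7, the brain fatty acid binding protein gene, had the lowest log2 fold of the 35 markers at -0.28 with a standard error of 0.24 (limma adjusted p = 0.517). Its BgnKO fructose values of 21.2, 33.8, 56.1 and 30.5 FPKM spread around those of WT fructose at 41.0, 46.4, 38.4 and 37.8 FPKM.

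None of the 6 genes of secreted and extracellular proteins passed, and 5 of them had folds above 0. Agt, which encodes angiotensinogen, made in the brain mainly by astrocytes, had the highest log2 fold of the 35 markers at 0.66 with a standard error of 0.23 (limma adjusted p = 0.114). It was at 21.6, 23.4, 50.0 and 33.3 FPKM in BgnKO fructose, against 13.2, 19.0, 25.8 and 19.3 FPKM in WT fructose, so BgnKO replicate 3 lay far above the rest of its group and the groups overlapped. Clu and Itih3 each had a log2 fold of 0.34, Cst3 had 0.25 and Mfge8, the gene of a milk fat globule protein that bridges dying cells to phagocytes, had 0.21. F3, the tissue factor gene, was the other marker with a fold below 0, at -0.19 (limma adjusted p = 0.393). Of the 3 genes of adhesion and cytosolic proteins, none passed. Cldn10, a claudin gene, had a log2 fold of 0.18. S100b, the calcium-binding protein gene, was at 89.9, 75.6, 106 and 110.4 FPKM in BgnKO fructose, against 73.0, 64.2, 80.7 and 61.6 FPKM in WT fructose, with a log2 fold of 0.44 and a limma adjusted p of 0.0686. Ndrg2, an N-myc downstream regulated gene, had a log2 fold of 0.53 and a limma adjusted p of 0.0600.

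Replicates 2 to 4 alone, without the libraries that differ in strand, gave 9 called markers on fructose, where 4.75% of all genes were called higher, and a median log2 fold of 0.38. These were Aqp4, Fgfr3, Gja1, Mlc1, Ndrg2, Slc39a12, Slc4a4, Sox2 and Sox9. Gfap was not among them, with a limma adjusted p of 0.0563, within a range of 0.00900 to 0.209 over the 12 other ways of processing. A term for replicate 1 gave 17 called markers, all 6 among them, against 7.92% of all genes. The others in that fit were Agt, Clu, Gjb6, Glul, Hepacam, Mlc1, Ndrg2, S100b, Slc4a4, Sox9 and Ttyh1. Leaving out any 1 library gave 1 to 13 called markers, and 14 of these 16 fits lost 1 to 5 of the 6 calls. Slc39a12 passed in all 16 of them, Fgfr3 in 14, Gja1 in 11, Gfap in 7, Sox2 in 6 and Aqp4 in 5. The count was 1 (Slc39a12) without BgnKO fructose replicate 4 or without WT fructose replicate 2, and 2 without BgnKO fructose replicate 3 or without WT fructose replicate 3 or 4. It was 11 without BgnKO fructose replicate 1, 10 without BgnKO fructose replicate 2 and 13 without BgnKO water replicate 4. The share of all genes called in the fits that left out 1 library is not given here. Their counts are therefore not set against that background. Fgfr3 was lost without BgnKO fructose replicate 4 and without WT fructose replicate 2. With BgnKO fructose replicate 4 and the library labelled WT fructose replicate 1 both left out, limma called 0 markers, 14 had an unadjusted p under 0.05 and the median log2 fold was 0.21, while 0.506% of all genes were called higher.

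On regular water no astrocyte marker passed the test between BgnKO and WT mice. The means of 31 of 35 markers were higher in BgnKO, where 49.4% of all genes were, and the median log2 fold was 0.11, against 0.00 over all genes. Limma called 0 markers in either direction at an adjusted p under 0.05, where 0.174% of all genes were called higher and 0.213% lower. At an unadjusted p under 0.05, 1 marker was higher (Gfap) and 1 lower (F3), where 2.45% and 2.88% of all genes were. No marker separated the groups without overlap, against 1.75% of all genes. Without BgnKO water replicate 4 the means of 13 markers were higher and the median was -0.01. Without WT water replicate 1, 25 were higher and the median was 0.06.

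Gfap was at 112, 117, 104 and 156 FPKM in BgnKO water, against 76.3, 101, 106 and 94.4 FPKM in WT water. BgnKO replicate 4 lay above the other 7 libraries, while BgnKO replicate 3 lay below WT replicate 3. The fitted log2 fold was 0.36 with a standard error of 0.15 and a limma adjusted p of 0.762. F3 was at 20.9, 24.6, 26.4 and 34.3 FPKM in BgnKO water, against 33.6, 30.5, 30.8 and 31.9 FPKM in WT water. BgnKO replicate 4 was the highest of these 8 libraries and the other 3 BgnKO libraries were the lowest. On the log2 scale the fold was -0.27 with a standard error of 0.12 and a limma adjusted p of 0.903.

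The water channel gene Aqp4 was at 31.9, 39.8, 38.7 and 50.7 FPKM in BgnKO water, against 33.2, 35.1, 36.6 and 27.8 FPKM in WT water. Gja1 was at 110.1, 100.3, 102 and 139 FPKM in BgnKO water, against 105, 101, 98.5 and 87.1 FPKM in WT water. Both genes overlapped between the groups and had their highest value in BgnKO water replicate 4. The glutamate transporter gene Slc1a2 was at 341, 342, 353 and 515 FPKM in BgnKO water, against 325, 387, 389 and 322 FPKM in WT water, so that BgnKO replicate 4 was far above its group. Glul was at 659, 593, 630.0 and 850 FPKM in BgnKO water, against 582, 661, 679 and 591 FPKM in WT water. The same library was again the highest, with the other 3 inside the WT range. Agt had the highest log2 fold of the 35 on water, 0.38 with a standard error of 0.23, and did not pass the test.

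**Figure D3:**
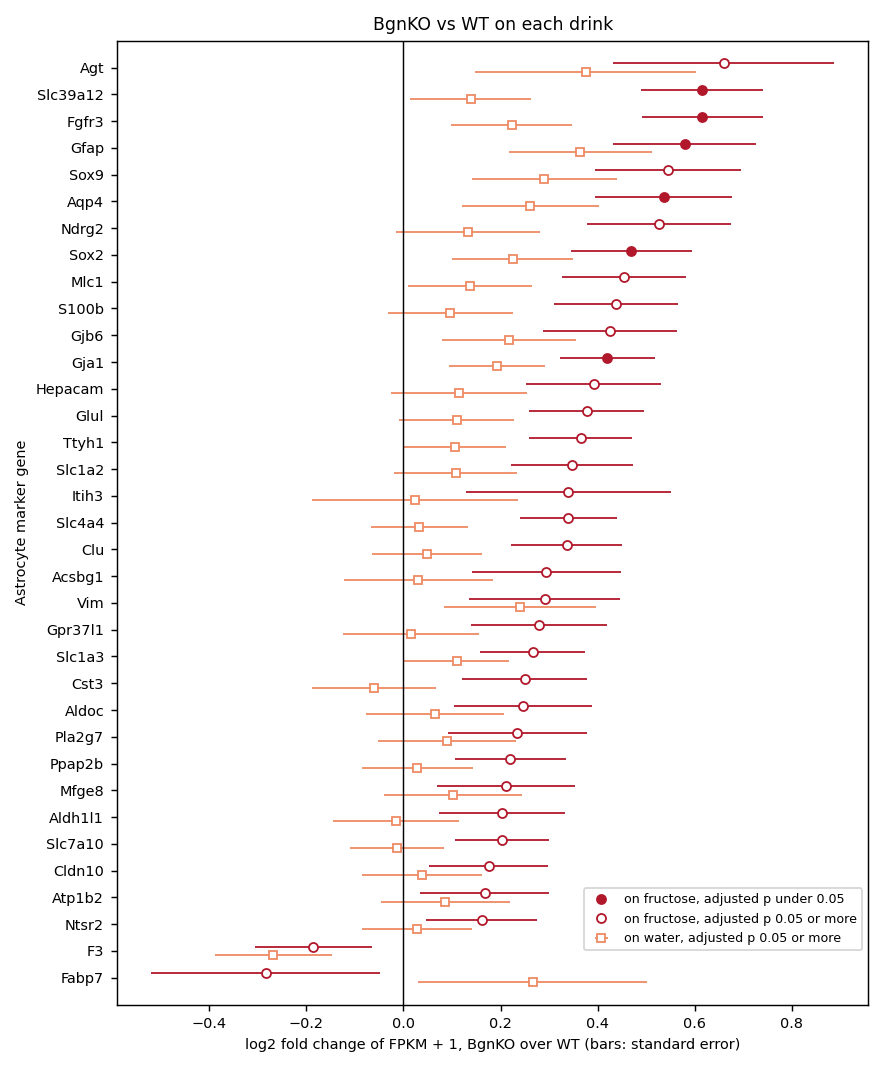
Log2 fold change of FPKM + 1, BgnKO over WT, for each of the 35 astrocyte markers on fructose (circles, filled where the limma adjusted p is under 0.05) and on water (squares), with bars for the standard error. Of the 35 folds, 33 lie above 0 on fructose and 31 on water, with medians of 0.34 and 0.11.

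Averaged over both drinks, 33 of 35 markers had a higher mean in BgnKO than in WT, where 48.1% of all genes did, with a median log2 fold of 0.19, and 7 rose. They were the 6 markers called on fructose and Sox9, and 2.12% of all genes were called higher by the same rule. No marker was called lower, against 2.87% of all genes. The log2 folds and limma adjusted p-values were 0.42 (0.0122) for Fgfr3, 0.47 (0.0161) for Gfap, 0.31 (0.0198) for Gja1 and 0.38 (0.0241) for Slc39a12. They were 0.40 (0.0326) for Aqp4, 0.42 (0.0343) for Sox9 and 0.35 (0.0344) for Sox2. The average includes the fructose comparison and shares its libraries, so it is no independent observation of these genes. The highest fold was again that of Agt at 0.52 (limma adjusted p = 0.0776) and the lowest that of F3 at -0.23 (limma adjusted p = 0.135). Replicates 2 to 4 alone gave 9 called markers, the 7 with Agt and Vim, where 5.49% of all genes were called higher. Without the library labelled WT fructose replicate 1 the count was 7, with Mlc1 in place of Sox9. Leaving out 1 library gave 3 to 11, with 11 without BgnKO fructose replicate 1 and 3 without BgnKO fructose replicate 3. It left 4 without replicate 4 of BgnKO fructose, WT fructose or WT water, or without BgnKO water replicate 3. For these fits too, the share of all genes called is not given here.

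The next question is what fructose did within a genotype. In BgnKO mice the means of 34 of 35 markers were higher on fructose than on water, where 51.8% of all genes were, but none passed the test. Their median log2 fold was 0.21, and that of all genes was 0.01. The BgnKO fructose libraries are those of the comparison with WT fructose, so the 2 comparisons are not independent. Limma called 0 of the 35 and 0% of all tested genes at an adjusted p under 0.05. At an unadjusted p under 0.05, 11 markers were higher, where 6.34% of all genes were. S100b, at 89.9, 75.6, 106 and 110.4 FPKM on fructose, against 61.7, 62.9, 66.7 and 85.7 FPKM on water, had the highest log2 fold at 0.45 with a standard error of 0.13 (limma adjusted p = 0.318). The water library inside the fructose range was replicate 4. Fabp7 had the lowest log2 fold at -0.16 with a standard error of 0.24.

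That count rested on single libraries. Without BgnKO fructose replicate 4, 2 markers had an unadjusted p under 0.05 and the median was 0.14, and without BgnKO water replicate 4, 25 did and the median was 0.33. The share of all genes under that threshold in these fits is not given here. With the level of oligodendrocyte and myelin genes as a covariate, 25 of 35 markers were higher, the median was 0.06 and 0 had an unadjusted p under 0.05. The myelin list lay at deviations of 0.08, -0.03, 0.17 and 0.26 in BgnKO fructose replicates 1 to 4 and of -0.22, -0.08, -0.12 and -0.02 in BgnKO water, and its part in the count was not tested further.

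In WT mice the markers had no common direction on fructose. The means of 20 of 35 were higher on fructose than on water, where 54.3% of all genes were, and the median log2 fold was 0.01. Limma called 0 markers, and 0.00791% of all genes in either direction. At an unadjusted p under 0.05, 0 markers were higher and 1 was lower, where 1.37% and 0.712% of all genes were. That marker was Slc4a4, at 24.9, 26.9, 23.2 and 27.2 FPKM in WT fructose, against 27.3, 31.8, 30.6 and 29.4 FPKM in WT water. These groups did not overlap, nor did 0.783% of all genes in that direction, and the log2 fold was -0.21 with a standard error of 0.10. Fabp7 had the highest log2 fold, 0.39 with a standard error of 0.24. Its values were 41.0, 46.4, 38.4 and 37.8 FPKM in WT fructose, against 36.9, 27.5, 36.4 and 24.7 FPKM in WT water, without overlap, as for 1.09% of all genes. Without the library labelled WT fructose replicate 1, 21 of 35 were higher and 0 markers had an unadjusted p under 0.05, Slc4a4 included, at a log2 fold of -0.20. Replicates 2 to 4 alone gave 15 of 35 higher.

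The difference between the knockout's effect on fructose and on water was tested as an interaction, which draws on all 4 groups. It was above 0 for 34 of 35 markers, with a median of 0.24 on the log2 scale, where 47.7% of all genes were above 0. Limma called 0 markers and 0.00791% of all genes at an adjusted p under 0.05. At an unadjusted p under 0.05, 3 markers were above 0 (Slc39a12, Fgfr3 and Slc4a4), against 1.55% of all genes. Slc39a12 had an interaction of 0.48 with a standard error of 0.18 and a limma adjusted p of 0.999. It was at 22.4, 23.3, 21.5 and 28.8 FPKM in BgnKO water, against 18.6, 22.7, 22.6 and 22.7 FPKM in WT water, where the groups overlapped. Fabp7 had the lowest interaction, -0.55 with a standard error of 0.33. Without the library labelled WT fructose replicate 1 the interaction was above 0 for 32 markers, with a median of 0.22, and 2 (Slc39a12 and Mlc1) had an unadjusted p under 0.05. The calls on fructose and their lack on water are therefore not shown to differ between the drinks.

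Other genes known from astrocytes were read in the same way. Of 56 listed, 55 were in the table and 54 were tested. On fructose, 52 of the 54 had a higher mean in BgnKO than in WT, with a median log2 fold of 0.30, and 6 rose: Ednrb, Id3, Adora2b, Aldh6a1, Adcyap1r1 and Id2. By the same rule 1.63% of all genes were called higher. Ednrb, the endothelin receptor type B gene, was at 23.2, 21.5, 25.0 and 24.4 FPKM in BgnKO fructose, against 17.2, 15.3, 15.96 and 14.6 FPKM in WT fructose, with a log2 fold of 0.55 and a limma adjusted p of 0.00203. Its groups were well apart, by more than the range within either group. Id3, which encodes an inhibitor of basic helix-loop-helix transcription factors induced by BMP signals, was at 31.3, 32.1, 41.8 and 49.8 FPKM in BgnKO fructose, against 20.1, 19.1, 26.7 and 19.0 FPKM in WT fructose. Its log2 fold was 0.83 with a limma adjusted p of 0.00977, and that of its relative Id2 was 0.34 with a limma adjusted p of 0.0495.

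Adora2b, an adenosine receptor gene of low level, was at 3.26, 2.91, 2.47 and 3.74 FPKM in BgnKO fructose, against 1.72, 1.89, 2.02 and 1.84 FPKM in WT fructose, without overlap. The log2 fold was 0.50 with a limma adjusted p of 0.0102. Aldh6a1, a mitochondrial enzyme gene of valine breakdown, showed a log2 fold of 0.34 (limma adjusted p = 0.0259), and Adcyap1r1, the receptor gene of the neuropeptide PACAP, had 0.31 (limma adjusted p = 0.0409). On water, 47 of the 54 had a higher mean in BgnKO and limma called 0, with a median log2 fold of 0.12. Without the library labelled WT fructose replicate 1, 52 of 54 were still higher on fructose, and 4 were called (Ednrb, Id3, Adora2b and Aldh6a1), while Id2 and Adcyap1r1 were lost. Here too the share of all genes called without that library is not given.

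Genes of reactive astrocytes were tested apart, because Gfap and Vim also mark that state. Of 32 listed, 28 were in the table and 18 were tested. On fructose all 18 had a higher mean in BgnKO than in WT, where 47.5% of all genes did, with a median log2 fold of 0.23. Limma called 0 of them. At an unadjusted p under 0.05, 2 of the 18 were higher, a share close to the 10.3% of all genes. Without the library labelled WT fructose replicate 1, 17 of the 18 were higher, the median was 0.12 and the calls were again 0. Lcn2, the lipocalin 2 gene that is a defining marker of the state, was at 0.0448, 0.460, 0.199 and 0.306 FPKM in BgnKO fructose, against 0.0402, 0.116, 0.260 and 0.114 FPKM in WT fructose. Both groups were under the filter. The table joins the serpin genes Serpina3h, Serpina3k and Serpina3n, the last of them a reactive astrocyte gene, into 1 entry that stands outside the list. It was at 109, 75.3, 86.9 and 75.6 FPKM in BgnKO fructose, against 35.7 to 41.3 FPKM in WT fructose, with a log2 fold of 1.16, a standard error of 0.10 and a limma adjusted p of 8.90e-06. This entry was chosen after its values were seen, and its FPKM cannot be divided among the 3 genes.

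Markers of other cell types moved in the same libraries. On fructose, 15 of 16 microglial markers had a higher mean in BgnKO than in WT and the median log2 fold was 0.34. Their summed level was 376 to 494 FPKM in BgnKO fructose and 298 to 364 FPKM in WT fructose. Limma called 0 of them at an adjusted p under 0.05. Of 15 endothelial and mural cell markers tested, 12 were higher, with summed levels of 174 to 339 FPKM in BgnKO fructose and 175 to 241 FPKM in WT fructose, and Itm2a rose with a log2 fold of 0.62 (limma adjusted p = 0.0322). Of 16 markers of pyramidal and granule neurons tested, 14 had a lower mean, with a median of -0.27 and summed levels of 3759 to 4811 FPKM in BgnKO fructose and 4945 to 5445 FPKM in WT fructose. Wfs1, the wolframin gene, high in CA1 pyramidal neurons, fell to 57.4, 57.6, 44.0 and 37.8 FPKM in BgnKO fructose, against 79.5, 72.4, 81.9 and 93.8 FPKM in WT fructose, with a log2 fold of -0.74 and a limma adjusted p of 0.00346.

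Oligodendrocyte and myelin markers summed to 2282 to 3483 FPKM in BgnKO fructose and 2232 to 2985 FPKM in WT fructose, with a median log2 fold of 0.07 over 17 genes. Choroid plexus markers, whose cells lie beside the hippocampus, summed to 2935 to 10281 FPKM in BgnKO fructose and 326 to 4935 FPKM in WT fructose. Of these, 15 of 15 had a higher mean in BgnKO, with a median of 1.09, and limma called 0 of them. Meningeal markers summed to 322 to 3141 FPKM in BgnKO fructose and 273 to 1529 FPKM in WT fructose, with 16 of 16 higher, a median of 0.45 and 0 calls. Without the library labelled WT fructose replicate 1, 10 of 16 meningeal markers were higher with a median of 0.05, 15 of 15 choroid plexus markers with 0.67, and 11 of 15 endothelial and mural cell markers with 0.14. Of the microglial markers 13 of 16 were then higher with a median of 0.32. Wfs1 and Itm2a were still called. No listed gene in the table was at 0 in all 4 libraries of a group. With the choroid plexus level as a covariate 5 astrocyte markers were called on fructose. Of the 6 calls, 3 (Fgfr3, Gja1 and Sox2) were among them and 3 (Gfap, Aqp4 and Slc39a12) were lost, while Mlc1 and Ttyh1 came in. With the myelin level 2 were called, Fgfr3 and Slc39a12. The share of all genes called with either covariate is not given here, so these counts are not set against that background. The part that other cell types have in the rise of the astrocyte markers was not tested beyond these fits.

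The libraries that were high in astrocyte markers were also high in microglial markers. Averaged over the microglial list the deviation was 0.05, 0.08, 0.37 and 0.42 in BgnKO fructose replicates 1 to 4 and 0.41 in BgnKO water replicate 4, close to the values of the astrocyte markers there. The endothelial list gave -0.40, 0.17, 0.34 and 0.45 in BgnKO fructose. The choroid plexus list went another way, at -0.31, 1.21, -0.34 and 1.58 in BgnKO fructose, -1.17 in BgnKO water replicate 4 and -1.95 in the library labelled WT fructose replicate 1. BgnKO fructose replicate 3 and BgnKO water replicate 4 were thus high in astrocyte markers and low in choroid plexus markers.

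**Figure D4:**
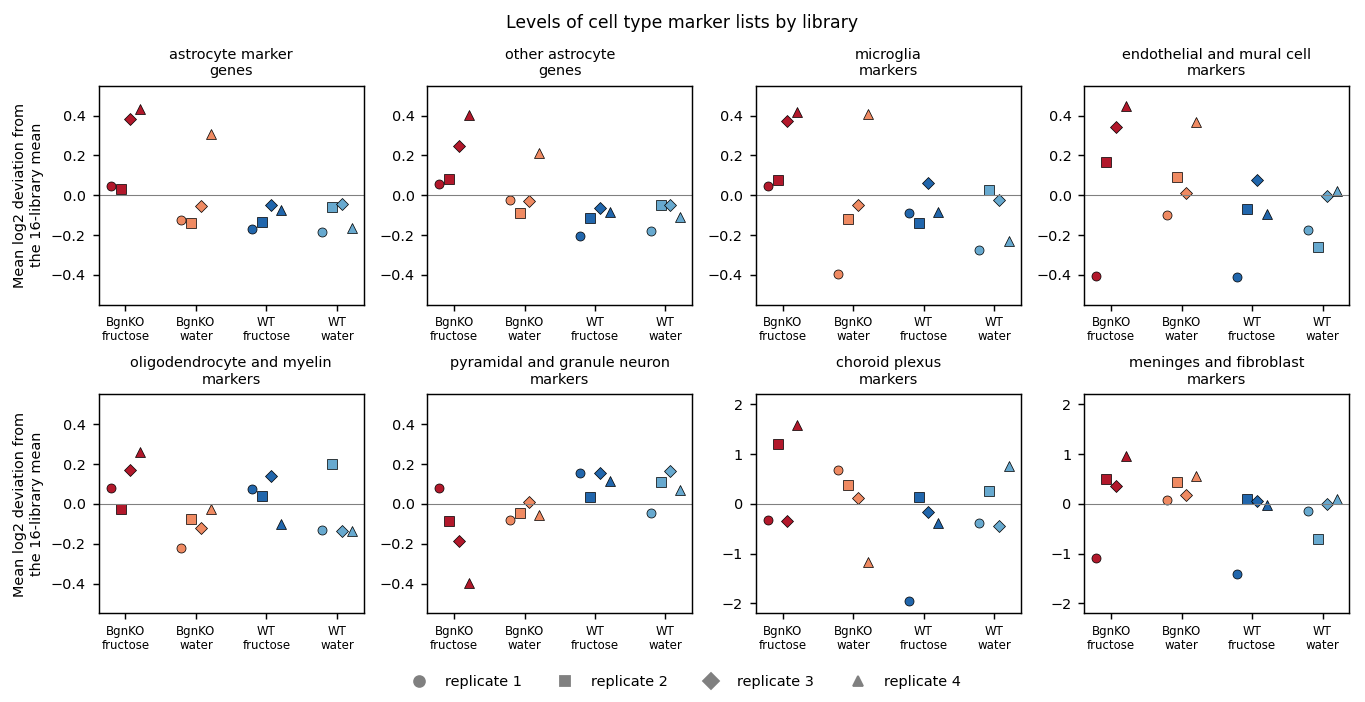
Mean log2(FPKM + 1) deviation from the mean of all libraries for the 35 astrocyte markers and for the marker lists of other cell types, in each of the 16 libraries (points, by group). BgnKO fructose replicates 3 and 4 are the highest of their group for the astrocyte list (0.38 and 0.43) and for the microglial list (0.37 and 0.42).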

How the data were processed

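Messenger RNA of 16 hippocampus libraries was analysed, 4 in each of 4 groups taken from the sample labels. Per the labels' protocols, a Qiagen AllPrep kit gave the RNA, which was selected for poly-A tails, copied with random hexamers and sequenced on an Illumina HiSeq. Per the submitters' processing notes, TopHat, Bowtie, Cufflinks and Cuffdiff were used with mm10, and the versions, strand setting and annotation are not given in the sources used here. The authors deposited FPKM values, 1 column for each library, over 27670 loci, and 4 pooled group columns were not used. FPKM carries no read number, and read numbers could not be recovered from the steps between low values, so the precision of a value is seen only in the spread between libraries.

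Loci that share a name were summed, and 4269 loci without a name, which took 46.8 to 70.4% of a library's FPKM, were left out. A linear model with 4 group means was fitted to log2(FPKM + 1) of all 16 libraries with limma 3.58.1 (R 4.3.3; empirical Bayes with a trend), over the 12648 genes that averaged 1 FPKM or more. The Benjamini-Hochberg adjustment ran over all these genes within each of 6 comparisons, with a threshold of 0.05. Bgn was also tested by exact permutation with scipy 1.17.1. The script was tested on simulated data. Positions came from GENCODE vM21 (GRCm38, the mm10 assembly) and promoter windows from RefSeq (GRCm38.p6).

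The markers, the 13 lists and the rule for named genes were chosen with earlier results of these data known. The lists were written from general knowledge and some share genes with the tissue's own cells. Values per library are given for 9 leading markers, for each marker called in any comparison and for those of the highest and lowest fold. Other markers are given by role. Of the other lists, the called genes are named, by a rule of at most 6 for each list. More than that are named for the other astrocyte genes, where those averaged over drink are added. For fructose against water, libraries of the same replicate number deviated together from their group means, with correlations of 0.20 to 0.61 in BgnKO and 0.12 to 0.70 in WT. The labels give a replicate number and state no pairing of libraries, and replicate 1 alone stands apart by its strand share. Alternatives were another pseudocount (0.1), filter (none or 5 FPKM) and scaling, 1 locus for each name, a term for replicate 1, a replicate block, replicates 2 to 4 alone, a choroid plexus or myelin covariate, and leaving out libraries. One gene that the rule for named genes selects is not reported here.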

Additional observations from a re-analysis of the deposited data

Results flagged for a closer look

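In 8 of the 140 pairs of a marker and a group, 1 library lay far from the other 3 of its group by Dixon's test at the 95% level. Chance flags about 1 in 20 such groups, and 3 of the 8 fell on BgnKO water replicate 4. In that library Slc1a2 was at 515 FPKM, against 341 to 353 FPKM in the other 3 libraries of the group. Ntsr2 was at 142 FPKM there, with the others at 103 to 108 FPKM, and Slc4a4 at 37.3 FPKM, with the others at 28.1 to 28.7 FPKM. This is the library that was the highest of its group for all 35 markers.

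In the BgnKO fructose group, Gjb6 in replicate 4 was at 36.7 FPKM, with the others at 24.6 to 26.6 FPKM, and Gpr37l1 in replicate 2 was low at 83.2 FPKM, with the others at 114 to 119 FPKM. In WT fructose replicate 4, Glul was at 693 FPKM, with the others at 629 to 631 FPKM. In WT water replicate 1, Slc39a12 was at 18.6 FPKM, with the others at 22.6 to 22.7 FPKM, and Ndrg2 was at 333 FPKM, with the others at 399 to 407 FPKM. Both values in WT water replicate 1 were low.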

How the results depend on the processing

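For BgnKO fructose against WT fructose, where 6 markers were called, the count was 3 without a filter on low FPKM, 2 with the myelin covariate, 17 with a term for replicate 1 and 0 with BgnKO fructose replicate 4 and the library labelled WT fructose replicate 1 both left out. With the replicate block it was 19, Slc1a2, Slc1a3 and Glul among them, where 9.16% of all genes were called higher. Averaged over drink, where 7 were called, it was 19 with the replicate block (18 higher, where 9.08% of all genes were, and F3 lower), 17 with the term for replicate 1 and 3 with both libraries left out. Over the fits that left out 1 library the counts were 1 to 13 on fructose and 3 to 11 averaged over drink, without the share of all genes beside them. That share is also not given for the fits without a filter or with a covariate. Nor is it given for the averages over drink with the term for replicate 1 or with both libraries left out. The cause of the changes in these counts was not tested, except that fewer libraries or more genes enter some of these fits. The labels state no pairing by replicate number. The correlations of same-number BgnKO and WT libraries were 0.09 to 0.75 on fructose and -0.04 to 0.69 on water. On water and between drinks 0 markers were called with the block, as without it. No fold of a marker past the threshold changed sign under any alternative. On fructose 33 of 35 markers were higher under every alternative, except 32 with quantile normalization, and the median log2 fold without 1 library was 0.27 to 0.40. On water it was -0.01 to 0.16. Read numbers are not known, so the limit set by depth cannot be given.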

Other observations

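In BgnKO mice no oligodendrocyte, myelin or interneuron marker passed the test between fructose and water. Of 17 oligodendrocyte and myelin markers tested, the means of 17 were higher in BgnKO fructose than in BgnKO water (median log2 fold 0.23), where 51.8% of all genes were. At an unadjusted p under 0.05, 5 were higher, against 6.34% of all genes, and limma called 0 after adjustment. In WT mice 16 of the 17 were higher on fructose than on water, with a median of 0.09. Of 10 interneuron markers, 10 had a lower mean in BgnKO fructose than in BgnKO water, with a median of -0.19. Of these, 4 were lower at an unadjusted p under 0.05, against 6.55% of all genes, and limma called 0 of them.

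Between BgnKO fructose and WT fructose, 9 of 11 tested neural stem cell and radial glia genes had a higher mean in BgnKO, with a median log2 fold of 0.18, and limma called 0. Of 6 ependymal markers tested, 6 were higher with a median of 0.24, and of 10 interneuron markers 9 were lower with a median of -0.09. Of 10 markers of striatal neurons, a neighbouring tissue, 4 were higher and 6 lower. The counts without the library labelled WT fructose replicate 1 were 10 of 11 higher (median 0.13), 6 of 6 higher (0.21), 9 of 10 lower (-0.12), and 3 higher and 7 lower for these 4 lists. Of 5 blood cell markers, 1 was in the table and passed the filter. Averaged over drink, 10 of the 54 other astrocyte genes rose, among them Slc16a1, Nfia, Prodh and Abca1 beside the 6 called on fructose. Over all genes 2.12% were called higher in that comparison.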
